A study of Solanum lycopersicum with 6 samples.

Results

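In tomato (Solanum lycopersicum) leaves, 36 gene models had a low level of LTM footprints relative to their CHX footprints. A footprint is the mRNA fragment left under a ribosome after digestion with RNase. The models were chosen by their footprint counts, expressed as counts per 1000000 counts of the library (CPM). Each had at least 5 CPM in both CHX libraries and a mean LTM level of at most 1/3 of its mean CHX level. Of 35768 gene models in the table, 8581 reached 5 CPM in both CHX libraries, and the 36 members were 0.420% of these. The choice used the LTM and CHX libraries, so the low LTM level of the members is a description and not a finding, while the 2 mRNA libraries took no part in it.

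The 6 libraries came in 3 kinds with 2 replicates each, all from true leaves of plants grown at 28 °C with 12 h of light. No genotype or cultivar is given here for any library, and the labels give an age of 3 weeks in one field and 2 weeks in another. For LTM, leaves were treated with the compound and puromycin was then added to the extract. For CHX, leaves were extracted in a buffer with 100 µg/ml cycloheximide. Total RNA for the mRNA libraries was taken out of that CHX extract and freed of rRNA. No mRNA level of leaves given LTM was analysed here. The smallest library, LTM replicate 1, held 18240140 counts and the largest, CHX replicate 1, held 48704200. Whether the 2 replicates of a kind are separate plants is not stated, and p-values therefore reflect library-to-library spread that may be technical.

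Cycloheximide arrests ribosomes while they elongate, so CHX footprints lie all along a coding region. LTM is the usual abbreviation of lactimidomycin, a compound that holds ribosomes at the start codon while those already elongating run on, and puromycin releases elongating ribosomes by ending the growing peptide early. A library of this kind is therefore used to find start sites. The counts analysed here cover whole coding regions and do not count footprints at start codons separately. Because each library is scaled to its own total, a low LTM level is a smaller share of the LTM library and not an absolute loss of ribosomes. The deposited table gives identifiers without gene names, and 0 of them matched the tomato gene table at hand, so no function can be assigned to the members and a few are given by identifier. No sequences of the models were at hand.

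Members lay at the far low end of the LTM to CHX ratio. The median ratio of mean LTM CPM to mean CHX CPM was 0.277 in the 36 members, with a range of 0.0544 to 0.325, and it was 0.974 in the other 8545 models at the same CHX level. The 2 members just inside the limit had ratios of 0.320 and 0.325, and the 2 models just outside had 0.337 and 0.338. Those inside had LTM levels of 2.58 and 3.62 CPM against CHX levels of 8.29 and 11.03 CPM, and 70.8 and 61.1 CPM against 209 and 196 CPM. Those outside had LTM levels of 6.36 and 5.57 CPM against CHX levels of 16.8 and 18.6 CPM, and 1.92 and 2.21 CPM against 6.47 and 5.73 CPM. No gap separated the members from the models beyond the limit.

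The low side of the distribution was short. At most 1/2 of the CHX level was reached by 199 models (2.32%), at most 1/3 by the 36 members and at most 1/4 by 16 models (0.186%). On the other side, 801 models (9.33%) had at least 2 times, 388 (4.52%) at least 3 times and 269 (3.13%) at least 4 times as many LTM as CHX CPM. The same rule with the kinds exchanged, at least 5 CPM in both LTM libraries and a mean CHX level of at most 1/3 of the mean LTM level, was met by 1467 of 9968 models (14.7%). These ratios depend on scaling to library totals. TMM factors, which assume that most models do not differ, lowered LTM relative to CHX by 0.29 on the log2 scale, and 76 models met the rule on that scale, the 36 members among them.

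**Figure D1:**
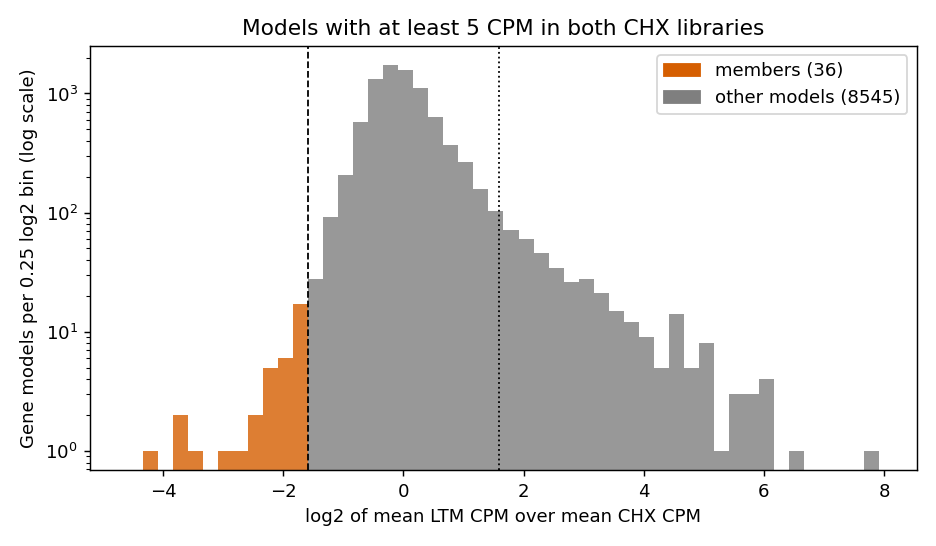
Histogram of the log2 ratio of mean LTM CPM to mean CHX CPM (x axis) in bins of 0.25, with the number of gene models per bin on a log scale (y axis), for the 36 members and the 8545 other models with at least 5 CPM in both CHX libraries. The dashed line marks a ratio of 1/3 and the dotted line a ratio of 3; the left tail holds 36 models and the right tail beyond the dotted line 388.

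The 2 members with the lowest ratio were Solyc08g023660.3.1 on chromosome 8 and Solyc04g007010.3.1 on chromosome 4. Solyc08g023660.3.1 had LTM levels of 3.51 and 8.64 CPM (64 and 337 counts), CHX levels of 107 and 116 CPM and mRNA levels of 43.3 and 53.6 CPM. Its mean was 6.08 ± 3.63 CPM in LTM against 112 ± 6.22 CPM in CHX (SD, n = 2 each), a ratio of 0.0544. Solyc04g007010.3.1 had 1.37 and 5.90 CPM in LTM (25 and 230 counts), 37.5 and 59.9 CPM in CHX and 17.4 and 26.7 CPM in mRNA, a ratio of 0.0746 between LTM and CHX. In both models LTM replicate 1 was the lowest of the 6 libraries, both LTM libraries lay below both mRNA libraries, and both CHX libraries lay above them.

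Solyc02g031920.3.1, next by the ratio at 0.0752, had 0.329 and 0.923 CPM in LTM, which is 6 and 36 counts, against 7.66 and 8.99 CPM in CHX. The fourth, Solyc04g005700.3.1, singled out after its values were seen, had 6.25 and 20.4 CPM in LTM against 119 and 163 CPM in CHX, a ratio of 0.0947. These first 4 members stood apart from the other 32, whose ratios ran from 0.136 to 0.325. Each of the first 4 had between 1.97 and 2.31 CHX CPM per mRNA CPM, and each had an LTM replicate 2 level 2.46 to 4.30 times that of LTM replicate 1. In the other 32 these values ran from 0.172 to 468 and from 0.587 to 4.15, so neither was particular to the first 4. CHX also enters the ratio that ranked them, which favours a high CHX level per mRNA.

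Mean CHX levels of the members ran from 5.36 to 668 CPM with a median of 12.9 CPM, against 17.6 CPM in the other models, and mean LTM levels had a median of 3.20 CPM, against 20.1 CPM. Behind the LTM values lay 6 to 3063 counts in LTM replicate 1 and 36 to 3843 in LTM replicate 2. The most abundant member, Solyc06g073320.3.1, was singled out after its values were seen. It had 168 and 98.6 CPM in LTM, 732 and 603 CPM in CHX and 2149 and 1745 CPM in mRNA. In this model the 3 kinds of library did not overlap, with LTM lowest and mRNA highest. The next most abundant member had 70.8 and 61.1 CPM in LTM, 209 and 196 CPM in CHX and 131 and 148 CPM in mRNA, and was the member closest to the limit.

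**Figure D2:**
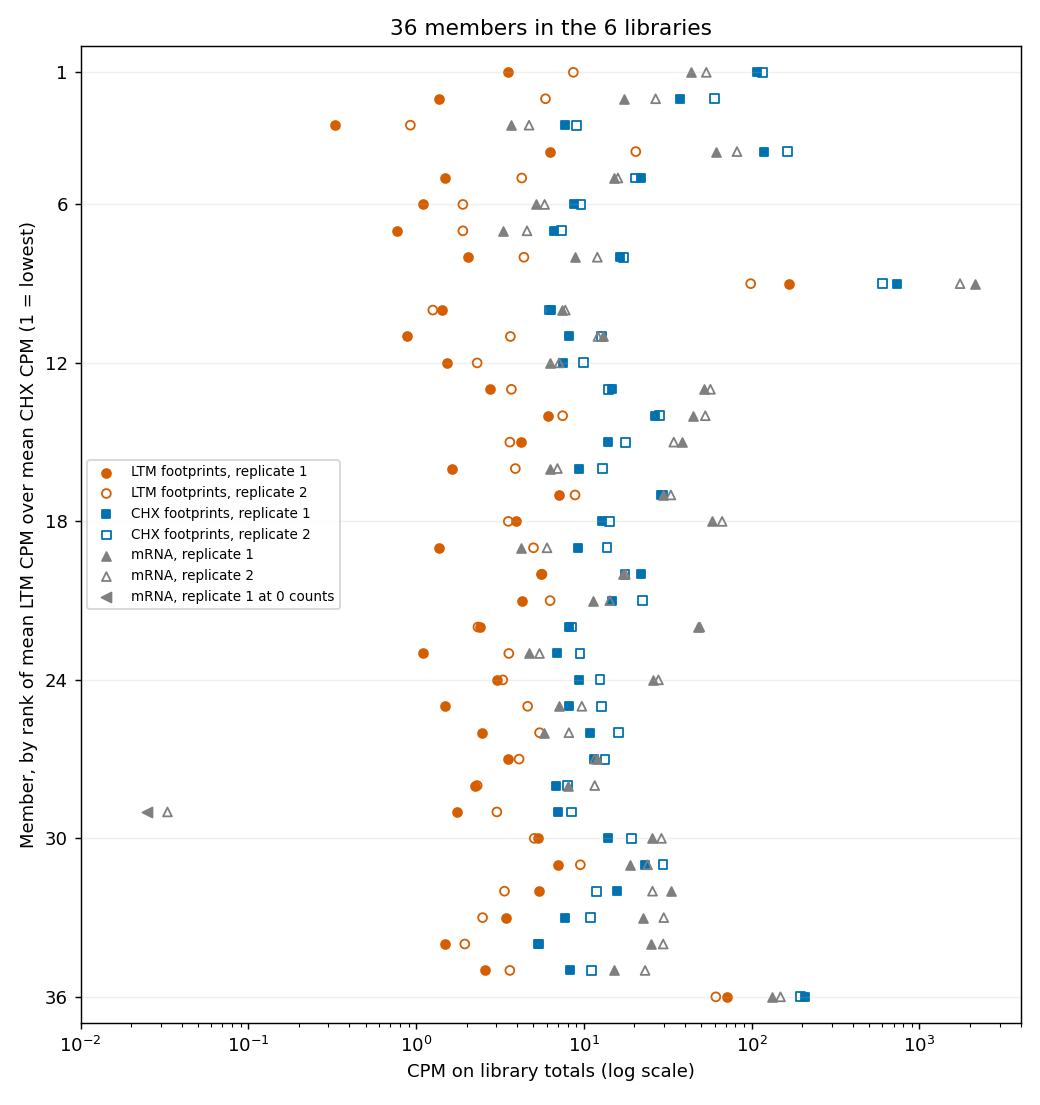
CPM on library totals (x axis, log scale) of each of the 36 members (y axis, ranked from the lowest ratio of mean LTM to mean CHX) in the 2 LTM, 2 CHX and 2 mRNA libraries, with filled symbols for replicate 1 and open symbols for replicate 2. LTM points lie left of CHX points in every row, as the choice favours, whereas mRNA points lie left of the CHX points in some rows and right of them in others; a left-pointing triangle marks 0 counts and its place on the axis is not to scale.

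The mRNA level of the members was close to that of the other models at the same CHX level. In the mRNA libraries, which took no part in the choice and in which fewer cells of a type and less RNA per cell cannot be told apart, the median of the 36 members was 18.3 CPM (16.1 in replicate 1 and 20.4 in replicate 2), against 16.5 CPM in the other 8545 models (15.1 and 17.8). Of the members, 1 had under 1 CPM of mRNA, 11 had 1 to 10 CPM, 22 had 10 to 100 CPM and 2 had 100 CPM or more. In percent these were 2.78, 30.6, 61.1 and 5.56, against 0.466, 29.5, 61.0 and 8.997 of all 8581 models. The median depended on which LTM library chose the members, at 28.3 CPM without LTM replicate 1 and 11.1 CPM without LTM replicate 2, and it was 11.7 CPM without CHX replicate 1.

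Footprints per mRNA varied widely among the members. CHX CPM per mRNA CPM, a form of translational efficiency, had a median of 1.18 in the members, with an interquartile range of 0.497 to 1.67, against 1.25 with 0.897 to 1.61 in the other 8540 models with mRNA counts. Footprints were counted over coding regions and mRNA over whole transcript regions, so untranslated parts of the transcript also enter this ratio. Under 0.5 CHX CPM per mRNA CPM were 9 of 36 members, against 4.80% of the other models, and over 2 were 4 members, against 9.72%. The median was thus near that of the other models, while a larger share of members lay far below it. The same CHX values helped to choose the members, and medians with 1 CHX library held out are given below.

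In edgeR's quasi-likelihood test over all 20806 models tested, with Benjamini-Hochberg adjusted p under 0.05, 12 of the 36 members (33.3%) were called lower in CHX than in mRNA and 7 (19.4%) higher. Over all models tested, 27.4% were called lower and 22.5% higher. Among the 8581 models with at least 5 CPM in both CHX libraries, 13.9% were called lower and 40.4% higher. The CHX libraries of this comparison also helped to choose the members, so the counts are a description. No test of the members as a set was made. The fit takes its estimate of spread from all 6 libraries, so the gap between the LTM replicates also enters these calls. The LTM libraries lay over 2-fold apart in 36.1% of members, against 1.71% of the other models. How far this changed the counts was not tested. The median log2 ratio of CHX to mRNA in the fit was 0.26 in the members, 0.34 in all models at that CHX level and -0.02 over all models tested. With the replicate number as a block, the pairing by number not being stated in the labels, edgeR called 13 members lower and 13 higher. The count of 7 was 1 without mRNA replicate 1 and 1 without mRNA replicate 2, with the median log2 ratio at 0.25 and 0.23 and 1 library fewer to estimate the spread. It also changed without CHX replicate 2, LTM replicate 1 or LTM replicate 2, where the rule chose 29, 38 and 54 models. For the block and the fits with a library left out, the share over all models is not given here. Their counts are therefore not read as a trait of the members. The count of 12 ran from 8 to 17 when 1 library was left out. The median log2 ratio was 0.63 without LTM replicate 2 and changed sign without LTM replicate 1, to -0.16.

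To keep the measured CHX library out of the choice, members were also chosen with 1 CHX library and both LTM libraries. CHX was then compared with mRNA in the CHX library that had not been used. This setting was added after the data were seen, and its single CHX library is assumed to vary like the other libraries. With CHX replicate 2 held out, 29 models were chosen, of which 10 (34.5%) were called lower and 3 (10.3%) higher than mRNA in edgeR's test. Of the 8815 models with at least 5 CPM in CHX replicate 1, 9.97% were called lower and 26.2% higher in the same fit. With CHX replicate 1 held out, 17 of 55 (30.9%) were called lower and 5 (9.09%) higher, against 11.6% and 33.0% of 9057 models. The median log2 ratio of CHX to mRNA in the chosen models was -0.02 with CHX replicate 2 held out, against 0.28 in the 8815 models. With CHX replicate 1 held out it was 0.03, against 0.34 in the 9057 models. The same LTM libraries chose both sets, so these are not separate lines of evidence. The LTM libraries also enter the spread behind these calls, so choosing and measuring were not fully separated.

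The 12 members called lower had log2 ratios of CHX to mRNA from -2.53 to -0.71 and mRNA levels of 19.1 to 1947 CPM, with a median of 32.8 CPM. In all 12 both CHX libraries lay below both mRNA libraries. Solyc08g005910.3.1 showed the largest fall, with 8.19 and 8.46 CPM in CHX against 48.0 and 49.0 CPM in mRNA, a log2 ratio of -2.53 (SE 0.14, edgeR adjusted p = 1.7e-05). It had 2.41 and 2.33 CPM in LTM, so its LTM libraries were as close to each other as those of CHX and of mRNA. Solyc06g008320.3.1 followed, with 5.34 and 5.39 CPM in CHX against 25.03 and 29.67 CPM in mRNA, a log2 ratio of -2.33 (SE 0.16, edgeR adjusted p = 4.3e-05), and it had 1.48 and 1.95 CPM in LTM. Both models were called in all 14 fits tried. The abundant Solyc06g073320.3.1 was also called lower, with a log2 ratio of -1.54 (SE 0.29, edgeR adjusted p = 0.00393).

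The 7 members called higher had log2 ratios of CHX to mRNA from 0.55 to 8.51 and a median mRNA level of 5.51 CPM. By the rule for naming, which asks for counts in both mRNA libraries, the largest rises were those of Solyc08g023660.3.1 and Solyc02g031920.3.1, both among the 4 members with the lowest LTM to CHX ratio. The log2 ratio of Solyc08g023660.3.1 was 1.23 (SE 0.33, edgeR adjusted p = 0.0176), and it was called in 9 of 14 fits. For Solyc02g031920.3.1, with 3.67 and 4.71 CPM in mRNA, it was 1.01 (SE 0.27, edgeR adjusted p = 0.0157), and it was called in 10 of the 13 fits that kept it. Neither model was called with either mRNA library left out, which leaves a single mRNA library. Solyc08g023660.3.1 was also not called without either CHX library, and Solyc02g031920.3.1 not without CHX replicate 2. The fit shares its estimate of spread over all 6 libraries. The gap between the LTM replicates of these models, 2.46-fold and 2.81-fold, therefore also enters their p-values. Their log2 ratios stayed at 1.20 to 1.27 for Solyc08g023660.3.1 and 0.95 to 1.08 for Solyc02g031920.3.1 with any 1 library left out. Solyc04g007010.3.1 had a similar log2 ratio of 1.17 (SE 0.48), and its edgeR adjusted p was 0.0767. Its replicate 2 was 1.60 times replicate 1 in CHX, 1.54 times in mRNA and 4.30 times in LTM. With the replicate number as a block its edgeR adjusted p was 0.00408. In DESeq2's Wald test without the block its adjusted p was 0.223. It was called in 4 of 14 fits, and why the fits differed was not tested.

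One member had almost no mRNA. Solyc12g062900.1.1, singled out after its values were seen, had 1.75 and 3.03 CPM in LTM (32 and 118 counts), 7.001 and 8.400 CPM in CHX (341 and 402 counts) and 0 and 1 counts in the mRNA replicates. Over both libraries of each kind, that is 743 CHX counts against 1 mRNA count, a ratio in CPM of 425 (exact binomial interval at 95% from 76.0 up to 16793), which covers counting error only. It was the only member with more LTM than mRNA CPM. In the other 35 members LTM CPM lay below mRNA CPM, as it did in 31.3% of the models outside the list, a difference that the choice of low LTM levels builds in.

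**Figure D3:**
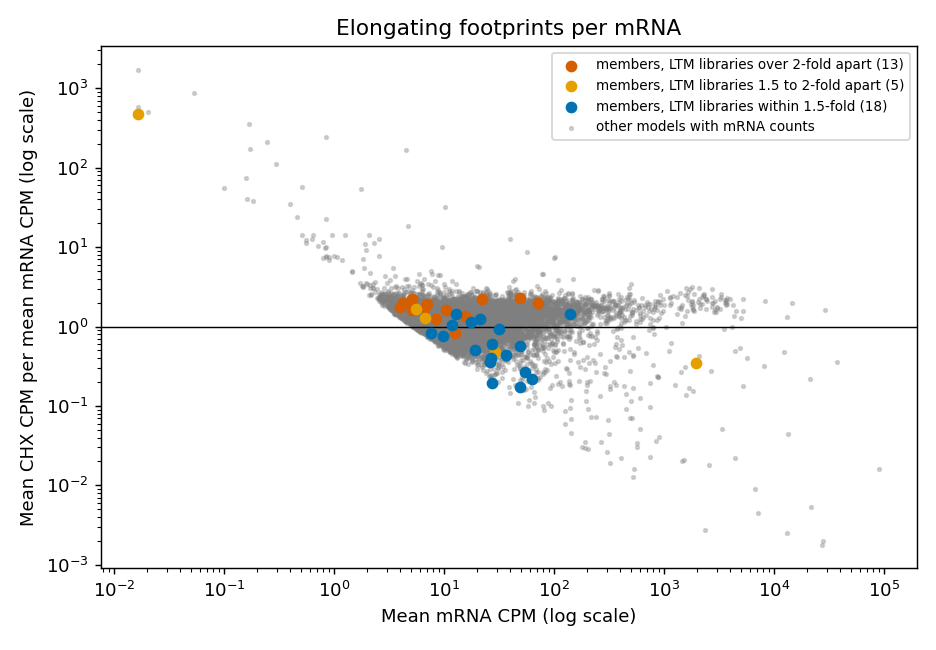
Mean CHX CPM per mean mRNA CPM (y axis, log scale) against mean mRNA CPM (x axis, log scale) for the 36 members, coloured by how far apart their 2 LTM libraries lay, and for the other models with at least 5 CPM in both CHX libraries and at least 1 mRNA count. Of the 18 members whose LTM libraries lay within 1.5-fold 13 fall below the line at 1, and of the 13 whose LTM libraries lay over 2-fold apart 12 lie above it; the lower left edge of the cloud follows from the limit of 5 CPM in CHX.

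The 2 LTM libraries did not agree equally well for all members. Each LTM library on its own was at most 1/3 of the mean CHX level in 22 of 36 members, only LTM replicate 1 was in 11, and only LTM replicate 2 in 3. LTM replicate 1 was the lower library in 27 members (75.0%), against 38.3% of the other 8545 models. The libraries lay over 2-fold apart in 13 members (36.1%), with LTM replicate 2 the higher in each, against 1.71% of the other models, and within 1.5-fold in 18 of 36 members, against 92.6% of the other models. The choice used these same LTM values, and LTM replicate 1 had the smallest total. The median LTM level was 3.05 CPM in the 13 discordant members and 3.78 CPM in the 18 concordant ones, and the part of depth in the discordance was not tested. The CHX libraries lay within 1.5-fold in 32 members and the mRNA libraries in 33.

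In all 36 members both LTM libraries were below both CHX libraries, and all 36 were called lower in LTM in edgeR's test, against 19.6% of all models tested. The rule used this contrast, so nothing is read from that count. In 18 members even the higher LTM library was at most 1/3 of the lower CHX library. Leaving out 1 footprint library at a time, 19 of the 36 members were chosen in all 4 cases, 6 in 3 cases and 11 in 2. Without LTM replicate 1 the rule chose 38 models, of which 25 were members. Without LTM replicate 2 it chose 54, of which 33 were members. Without CHX replicate 1 it chose 55, of which 34 were members, and without CHX replicate 2 it chose 29, of which 24 were members.

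**Figure D4:**
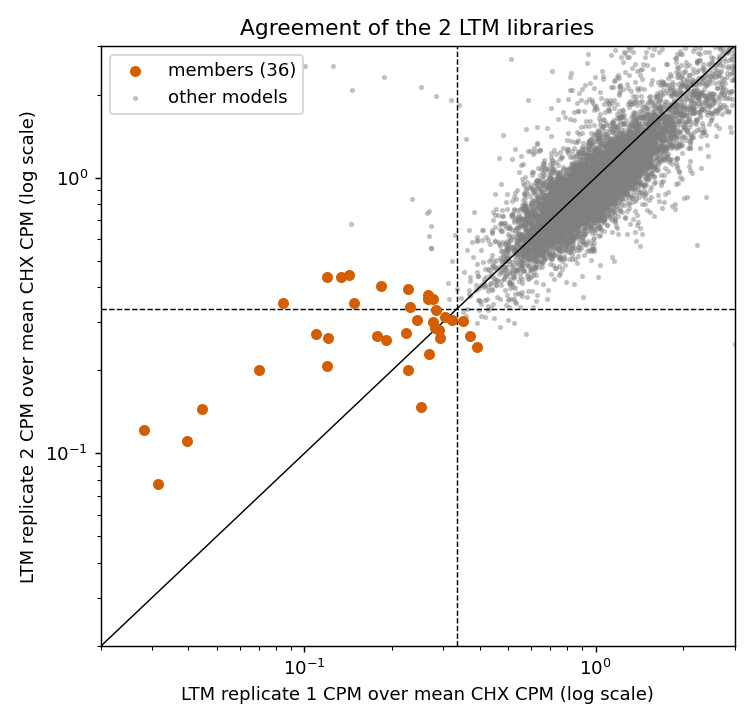
LTM replicate 2 CPM over mean CHX CPM (y axis, log scale) against LTM replicate 1 CPM over mean CHX CPM (x axis, log scale) for the 36 members and the other models with at least 5 CPM in both CHX libraries, with equality as the solid line and 1/3 as the dashed lines. The axes end at 3, so models above that are not drawn; 27 members lie above the line of equality and 22 lie in the lower left square.

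The rule was also applied within 1 replicate number and read in the other, whose libraries had no part in the choice. In replicate 1, 37 of 8815 models with at least 5 CPM in CHX had an LTM level of at most 1/3 of CHX, with a median ratio of 0.232. In replicate 2 these 37 had a median ratio of 0.287 and a range of 0.0744 to 0.684, and 26 (70.3%) were again at or under 1/3, against 0.567% of all 8815 models. Chosen in replicate 2, 63 of 9057 models had a median ratio of 0.281. In replicate 1 these 63 had a median of 0.321, 33 of them (52.4%) were at or under 1/3, against 0.563% of the 9057, and 3 were above 1, with the highest at 4.24. The low ratio thus recurred in the unused libraries in most models, by less than in the libraries that chose them.

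Members with concordant and discordant LTM libraries differed in other values. The 13 members whose LTM libraries lay over 2-fold apart had a median of 1.78 CHX CPM per mRNA CPM, with a range of 0.830 to 2.31, and 12 of them lay above 1. The 18 whose LTM libraries lay within 1.5-fold had a median of 0.585 with a range of 0.172 to 1.45, and 13 of them lay below 1. Of the 12 members called lower in CHX than in mRNA, 10 were among these 18 and 0 among the 13. Their median mRNA level was 27.1 CPM, against 8.40 CPM in the 13. These classes were set after the values were seen, and no test of the difference was made.

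The discordant members also differed between replicates in the other kinds of library. In the 13, CHX replicate 2 was a median of 1.38 times CHX replicate 1 and above it in 12, and mRNA replicate 2 was a median of 1.34 times mRNA replicate 1. In the 18 these medians were 1.14 and 1.13, and over all other models 1.02 and 1.19. The CHX shift was also found outside the list. In the 100 other models with LTM replicate 2 over 2 times LTM replicate 1, the CHX median was 1.505. Their mRNA median was 1.23, near the 1.19 of all other models, and their median LTM to CHX ratio was 1.47. Over the 35 members with counts in every library, the log2 ratio of replicate 2 to replicate 1 in LTM correlated with that in CHX at Pearson's r = 0.550 (Spearman's rho = 0.539), and that in CHX with that in mRNA at r = 0.552 (rho = 0.525). In 8535 other models the same values were r = 0.448 (rho = 0.315) and r = 0.594 (rho = 0.506). Models are not independent replicates and all share the same 6 libraries, so these are descriptions. Their part in the low LTM to CHX ratios was not tested.

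In locus order, taken from the chromosome and locus numbers in the identifiers, members were spread over most of the genome. Chromosomes 4 and 6 held 6 each, 0.846% and 0.816% of the models there with at least 5 CPM in both CHX libraries. Chromosomes 2 and 9 held 4 each, chromosomes 7, 8 and 12 held 3 each, chromosomes 1, 5 and 10 held 2 each and chromosome 11 held 1. Chromosome 3 held 0 of 862 such models. The median distance between successive members of a chromosome was 613 places, and the longest was 2346. With so few members per chromosome, these counts do not show that chromosomes differed.

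Neighbouring members came in 2 pairs, given here after their values were seen. On chromosome 2, Solyc02g091210.1.1 had 3.51 and 4.10 CPM in LTM, 11.4 and 13.4 CPM in CHX and 11.9 and 11.6 CPM in mRNA. The next model, Solyc02g091220.1.1, had 1.54 and 2.31 CPM in LTM, 7.45 and 9.88 CPM in CHX and 6.29 and 7.11 CPM in mRNA. Both were low in LTM in both replicates, with LTM to CHX ratios of 0.307 and 0.222. On chromosome 4, Solyc04g007820.3.1 had 2.03 and 4.39 CPM in LTM, 16.4 and 17.2 CPM in CHX and 8.87 and 12.0 CPM in mRNA. Its neighbour Solyc04g007825.1.1 had 1.37 and 5.00 CPM in LTM, 9.24 and 13.7 CPM in CHX and 4.23 and 6.03 CPM in mRNA. In this pair, with ratios of 0.191 and 0.277, LTM replicate 2 was over 2-fold above LTM replicate 1 in both models. Neighbours of similar sequence can share reads, and whether these do was not tested. No member had counts identical to those of another model in all 6 libraries.

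Apart from these 4 models, no member had another within 20 places. Of the 72 models next to a member, 24 had at least 5 CPM in both CHX libraries, and 4 of these (16.7%) were the members of the 2 pairs. The other 20 had LTM to CHX ratios of 0.691 to 2.26 with a median of 0.999, close to the 0.974 of all models outside the list. The next closest, also given after their values were seen, were 21 places apart on chromosome 6, Solyc06g059710.3.1 and Solyc06g059885.1.1, with ratios of 0.285 and 0.294, and 35 places apart on chromosome 4, Solyc04g005700.3.1 and Solyc04g007010.3.1, both among the 4 lowest ratios.

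**Figure D5:**
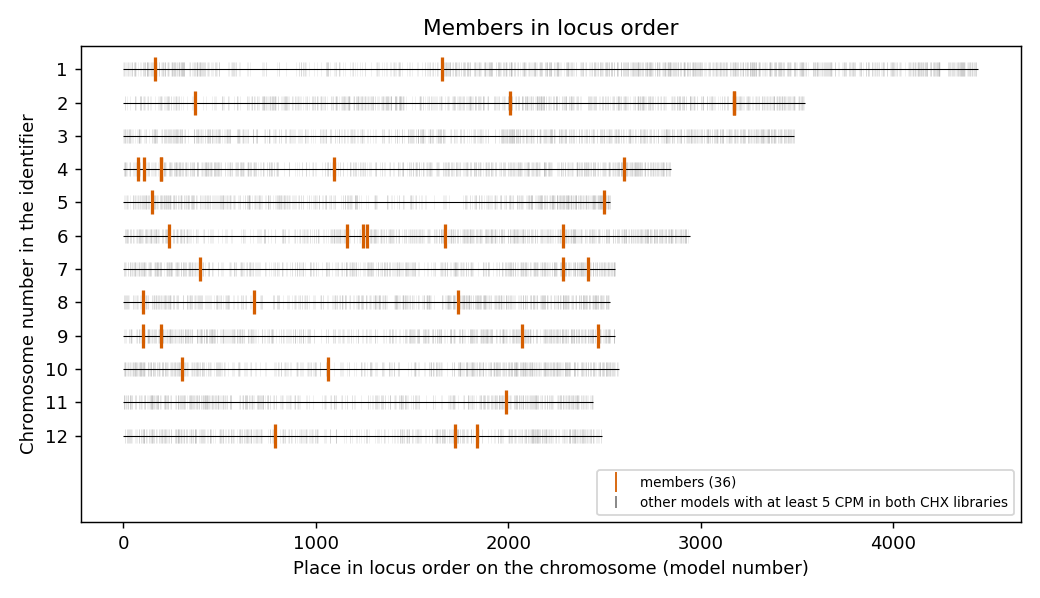
Place in locus order along each chromosome (x axis, counted in gene models) for chromosomes 1 to 12 (y axis), with the 36 members as tall marks and the other models with at least 5 CPM in both CHX libraries as short pale marks. The 2 neighbouring pairs, on chromosomes 2 and 4, each merge into a single mark, and chromosome 3 has no member.

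The identifiers themselves held a difference that the rule did not use. The number after the first point of the identifier was 1 in 10 members (27.8%), 2 in 3 and 3 in 23, against 10.6%, 20.6% and 68.5% of all 8581 models. The locus number ended in a digit other than 0 in 4 members (11.1%), against 3.54%. These 4 were all among the 10 with a 1 after the first point, so the differences rest partly on the same models. What these numbers mark is not given in the sources used here, and the differences were not tested.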

How the data were processed

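The authors deposited unnormalised counts, 1 whole number per gene model and library (2 LTM, 2 CHX and 2 mRNA). Footprints were counted in coding regions and mRNA in transcript regions, per the file headers. Per the labels, footprints of 26 to 32 nt were cut from gels and libraries were read as 75-bp single ends. The aligner, counter, genome build and annotation were not stated in the sources used here. Groups and replicate numbers come from the titles.

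CPM was counts over the library total. Members met the rule given above. Locus order was the chromosome and locus number in the identifier. One edgeR quasi-likelihood model (R 4.3.3, edgeR 4.0.16; TMM, filterByExpr, 3 residual degrees of freedom) was fitted to all 6 libraries and 20806 of 35768 models, with two-sided Benjamini-Hochberg adjusted p under 0.05 over all of them. All 36 members passed the filter. The SE of a log2 ratio was derived from its F statistic. DESeq2 1.42.0, other scalings, filters and limits, a replicate block and leaving out each library were tried. The fit was tested on simulated counts. The members, lists and tests were chosen with earlier results of these data known. Named by rule were the 2 members with the lowest ratio and the 2 largest rises and falls of CHX against mRNA, among members past the threshold with counts in both mRNA libraries and no overlap between the kinds. Gene groups by product and sequences were not used here, for want of names.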

Additional observations from a re-analysis of the deposited data

How the results depend on the processing

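Of 137 alternative values, 76 stayed close to those reported (counts within 1.5 times, medians within 1 SD). For the mRNA level this was the SD of the median between replicates, 3.02 CPM. For the log2 ratio it was the SD of a typical single member, 0.31, which is wide for a median. Some of the 76 could not change, since neither leaving out an mRNA library nor keeping identical models once alters the choice of members. The tally is therefore not a measure of stability. Other limits, minimums and scalings in the rule choose other members, and the values moved with them. With a limit of 1/2 in place of 1/3, the rule gave 199 members, of which 53 were higher and 55 lower in CHX than in mRNA, 198 were lower in LTM than in CHX, 134 met the limit in each LTM library and 16 were next to a member. With 1/4 it gave 16 members, 4 higher, 4 lower, 16 lower in LTM, 7 in each LTM library, 0 next to a member, a median log2 ratio of CHX to mRNA of 0.59 and a median mRNA level of 14.0 CPM. With a minimum of 10 CPM in CHX it gave 19 members, 3 higher, 7 lower, 19 lower in LTM, 14 in each LTM library, 0 next to a member and 29.3 CPM of mRNA. With a minimum of 2 CPM it gave 58 members, 13 higher, 58 lower in LTM, 36 in each LTM library, 8 next to a member and 7.07 CPM of mRNA. TMM scaling in the rule gave 76 members, 14 higher, 29 lower, 76 lower in LTM, 53 in each LTM library and a reversed median log2 ratio of -0.15. DESeq2 size factors gave 74, 14, 28, 74, 53 and -0.15 for these. The number higher in CHX than in mRNA was 13 with no filter, 3 with a 2-fold minimum and 3 in the members chosen without CHX replicate 2 and compared in it. With a filter of 10 CPM in 2 libraries, 25 of the 36 members were tested. EdgeR called 0 of them higher, 1 at an unadjusted p under 0.05, and the median log2 ratio reversed to -0.54. DESeq2 with the usual filter called 8 higher. With no filter 27593 models were tested, and with the filter of 10 CPM 8292. Apart from the setting with a CHX library held out, the share over all models is not given for these other rules and fits. Their counts are therefore not read as a trait of the members. RNA for mRNA was taken from the CHX extract, but the labels do not tie replicate numbers to extracts, and with 2 numbers the libraries were not treated as paired. A replicate block gave 13 members higher and 13 lower in CHX than in mRNA, and the correlation of same-numbered libraries' deviations was 0.309 for LTM and CHX, 0.326 for CHX and mRNA and 0.200 for LTM and mRNA. Leaving out 1 library gave 29 to 55 members, a median log2 ratio of -0.16 to 0.63 and 11.1 to 28.3 CPM of mRNA. It also gave 19 to 54 members in each LTM library left and 2 to 6 next to a member. The number higher in CHX than in mRNA changed as well. Beyond the change of members, the causes were not tested. Depth limits the lowest LTM values, with as few as 6 counts in LTM replicate 1. Chi-square per degree of freedom between replicates over all models was 48.3 in LTM, 47.1 in CHX and 52.8 in mRNA. The spread over all models was thus beyond counting error in each kind. These pooled values do not measure the spread of members with few counts, and the part of depth there was not tested.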
